A study of Sparus aurata with 5 samples.

Results

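The lymphocyte genes igm and cd4 were described here in the intestine of gilthead seabream (Sparus aurata) juveniles. They are 2 of the 14 target genes measured by real-time qPCR, beside 7 claudins, 3 occludins, il10 and tlr9, and both were taken by name. The anterior intestine, called proximal in the sample labels, of 60 fish was analysed, with 12 fish for each of 5 diets. The control feed (CT) was free of microalgae and of nutraceuticals. LB-GREENboost was added at 0.5% in GB5 and at 1% in GB10, and LB-GUThealth was added at the same levels in GH5 (0.5%) and GH10 (1%). Each of these functional ingredients combines hydrolysed Arthrospira and Microchloropsis with excipients, and LB-GREENboost has the larger share of the microalgae. Wheat meal was lowered to make room for them. Each diet was fed to 3 tanks, and 4 fish were taken from each tank. The tank of each fish was not identified here, so fish were the replicates. Fish of a tank share their surroundings, and any difference between tanks would make the p-values smaller than they should be.

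The gene igm encodes the heavy chain of immunoglobulin M, the antibody carried on the surface of B cells and secreted by plasma cells. It is the main antibody of teleost blood, and it is also made in the gut wall, where it is released into the mucus. The gene cd4 encodes the co-receptor of helper T cells, which binds class II molecules of the major histocompatibility complex on antigen-presenting cells and assists the T cell receptor. Together the pair reads the B cell and the helper T cell side of adaptive immunity in the gut. In RNA of whole tissue, fewer cells of a type and less RNA per cell cannot be told apart. No other lymphocyte marker was among the target genes. In the RefSeq gene table of the assembly fSpaAur1.1, neither of the sequences listed for these primers was found. The table names a pair of adjacent genes as cd4-1 and cd4-2.1, and which of them the cd4 assay reads was not settled.

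Amplification of igm was detected earlier than that of cd4. The quantification cycle, which falls by 1 when the template doubles if amplification is complete, was 25.6 ± 1.07 (SD, n = 40 fish) for igm and 28.9 ± 0.553 (SD, n = 60) for cd4. In the order of the mean cycles of the 14 genes, igm was number 5, between cldn4l and oclnl, and cd4 was number 9, between cldn5 and il10. The means of both neighbours of igm lay within 1 SD of igm, and those of cd4, 28.1 and 29.7, lay more than 1 SD of cd4 away. The tissue expressed cldn15, a claudin typical of the intestine, at a cycle of 24.3 ± 0.324 (SD, n = 59). In the same fish, the cycle of cd4 was higher than that of igm by 3.33 ± 1.06 (SD, n = 40), with a range from 1.02 to 5.51 cycles, so igm came first in every one of these fish. The amplification of each primer pair was not compared here, so the gap in cycles is not a ratio of transcripts. The authors give a range for the cDNA in a reaction, and the amount for each gene is not stated. The order of the genes by cycle is therefore not an order of transcript abundance. The reference gene eef1a, which encodes the elongation factor that brings transfer RNA to the ribosome, had a cycle of 18.7 ± 0.390 (SD, n = 60).

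The genes differed in how far fish of the same diet were apart. The SD within diets of log2 relative expression was 0.99 for igm and 0.51 for cd4. Among the 14 genes, cd4 was number 4 from the least variable, and igm was number 11, next to the cytokine gene il10. From the lowest to the highest fish, relative expression spanned a factor of 14.8 for igm and of 5.54 for cd4. The share of the variance of log2 relative expression that lay between diets was 7.18% for igm and 6.37% for cd4. Such a share arises from the spread between fish even where diets do not differ. The mean square between diets was 1.06 times that within diets for igm and 0.919 times for cd4 (F statistic).

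**Figure D1:**
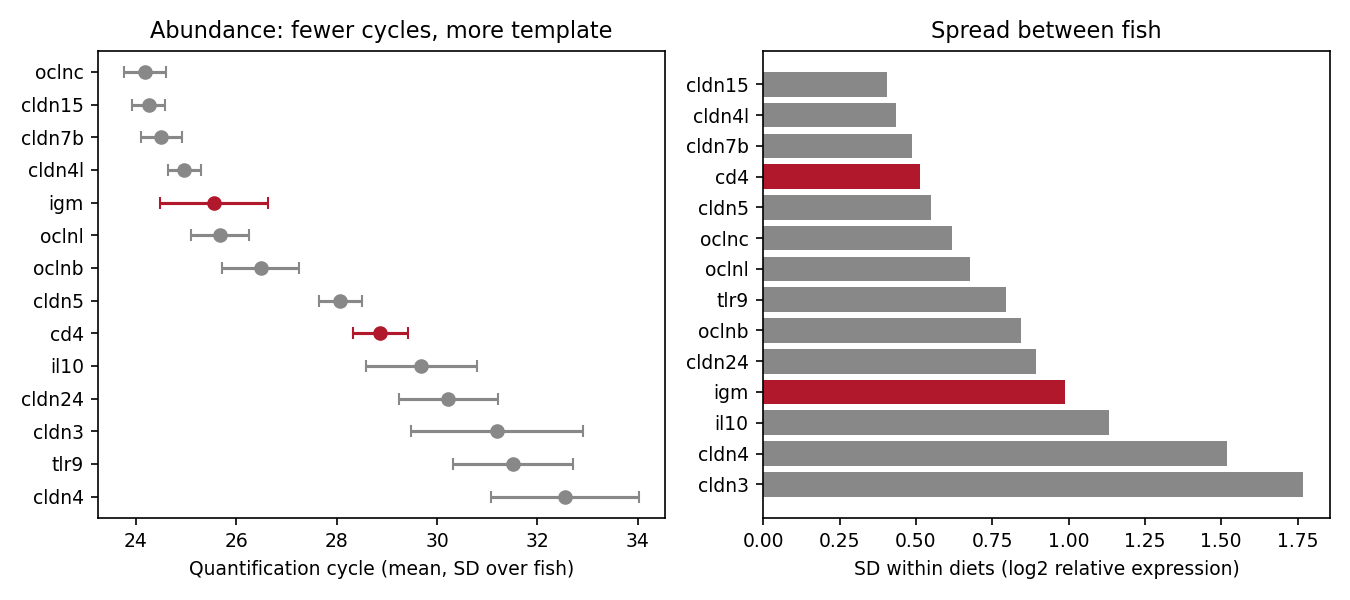
Left, quantification cycle of the 14 target genes (mean and SD over fish), with igm and cd4 in red. The amount of cDNA for each gene is not stated, so cycles do not rank genes by transcript abundance. Right, SD within diets of log2 relative expression as bars from 0. The mean cycle was 25.6 for igm and 28.9 for cd4, and the SD within diets was 0.99 for igm and 0.51 for cd4.

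Part of the igm cycles was left out. In 20 fish, 4 in each diet, the cycle listed for igm is equal to that of cldn15, the gene of an intestinal claudin, in the same fish. These are the fish of rows A9 to A12 in every diet, and their igm cycles were taken as missing. In the other 40 fish, 8 in each diet, the cycles of igm and eef1a gave the deposited relative expression within 1%. In the 20 fish they did not, since the listed cycles would have given values higher by between 0.20 and 3.69 on the log2 scale. The igm cycle that the deposited ratio calls for was therefore calculated back from the ratio and the eef1a cycle. It lay between 24.4 and 27.5, with a median of 25.7, where the 40 cycles in use lay between 23.4 and 27.4, with a median of 25.6. The cldn15 cycles in those rows lay between 23.8 and 24.9. All 20 values calculated back fell within 0.00025 cycles of a whole step of 0.005, the step in which cycles are listed. The relative expression of igm was therefore analysed in all 60 fish, and again in the 40 fish with a cycle of their own.

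Relative expression is scaled to eef1a in each fish and to a mean of 1 in CT. For igm, every supplemented diet had a lower mean than CT, and the fish of all diets overlapped. In CT it was 1.00 ± 0.589 (SD, n = 12), with a lowest value of 0.328, a median of 0.823 and a highest value of 2.08. In GB5 it was 0.739 ± 0.535 (SD, n = 12), from 0.140 over a median of 0.731 to 1.79. The 2 fish with the lowest igm of the whole study were both fed GB5, at 0.140 and 0.161, and neither has an igm cycle of its own. This diet also had 4 fish above 1, as many as CT.

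In GB10 the relative expression of igm was 0.662 ± 0.477 (SD, n = 12), from 0.197 over a median of 0.592 to 1.88. A single fish stood above the rest of GB10, since the next value was 1.14. In GH5 it was 0.831 ± 0.488 (SD, n = 12), from 0.241 over a median of 0.683 to 1.96. In GH10 it was 0.679 ± 0.359 (SD, n = 12), from 0.179 over a median of 0.672 to 1.24. No fish of GH10 reached the level of the highest in the other diets. The order of the means, CT, GH5, GB5, GH10 and GB10, held no pair of diets that differed beyond the spread between fish. In the one-way permutation test over the 5 diets, p was 0.383 for igm (Benjamini-Hochberg value over the 14 genes 0.716). Of the 14 genes, 1 was under 0.05 in that test, or 7.14%, and it was neither igm nor cd4.

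In the 40 fish with an igm cycle of their own, the relative expression of igm was 0.982 ± 0.501 (SD, n = 8) in CT. It was 0.898 ± 0.567 in GH5, 0.842 ± 0.568 in GB5, 0.773 ± 0.548 in GB10 and 0.665 ± 0.371 in GH10, with 8 fish each. CT again had the highest mean and every other diet was within 1 SD of it. The remaining 4 fish of each diet averaged 1.04 ± 0.826 (SD, n = 4) in CT, where they included both the lowest and the highest of the 12 fish. Those of the other diets averaged 0.709 ± 0.387 in GH10, 0.695 ± 0.297 in GH5, 0.534 ± 0.459 in GB5 and 0.441 ± 0.188 in GB10. With the 40 fish alone, the one-way permutation p was 0.676.

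For cd4, the means of 4 diets lay close together and GB10 was the lowest. In CT its relative expression was 1.00 ± 0.342 (SD, n = 12), with a lowest value of 0.590, a median of 0.926 and a highest value of 1.81. In GB5 it was 1.12 ± 0.676 (SD, n = 12), from 0.607 over a median of 1.07 to 3.14. That highest value was the largest of cd4 in the study, and the next fish of GB5 was at 1.23. Without this fish, the mean of GB5 was 0.932 ± 0.240 (SD, n = 11).

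In GB10 the relative expression of cd4 was 0.840 ± 0.297 (SD, n = 12), from 0.574 over a median of 0.774 to 1.67. In this diet 2 of 12 fish were above 1, against 5 of 12 in CT and 7 of 12 in both GB5 and GH5. In GH5 it was 1.09 ± 0.341 (SD, n = 12), from 0.655 over a median of 1.07 to 1.64. In GH10 it was 1.04 ± 0.440 (SD, n = 11), from 0.566 over a median of 0.930 to 2.10. A further fish of GH10 has a cycle for cd4 and no deposited ratio. Calculated from its cycles its relative expression was 1.17, below 3 and above 8 of the 11 fish kept, and with it the mean of GH10 was 1.05 ± 0.421 (SD, n = 12). The one-way permutation p was 0.462 for cd4 (Benjamini-Hochberg value 0.716).

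**Figure D2:**
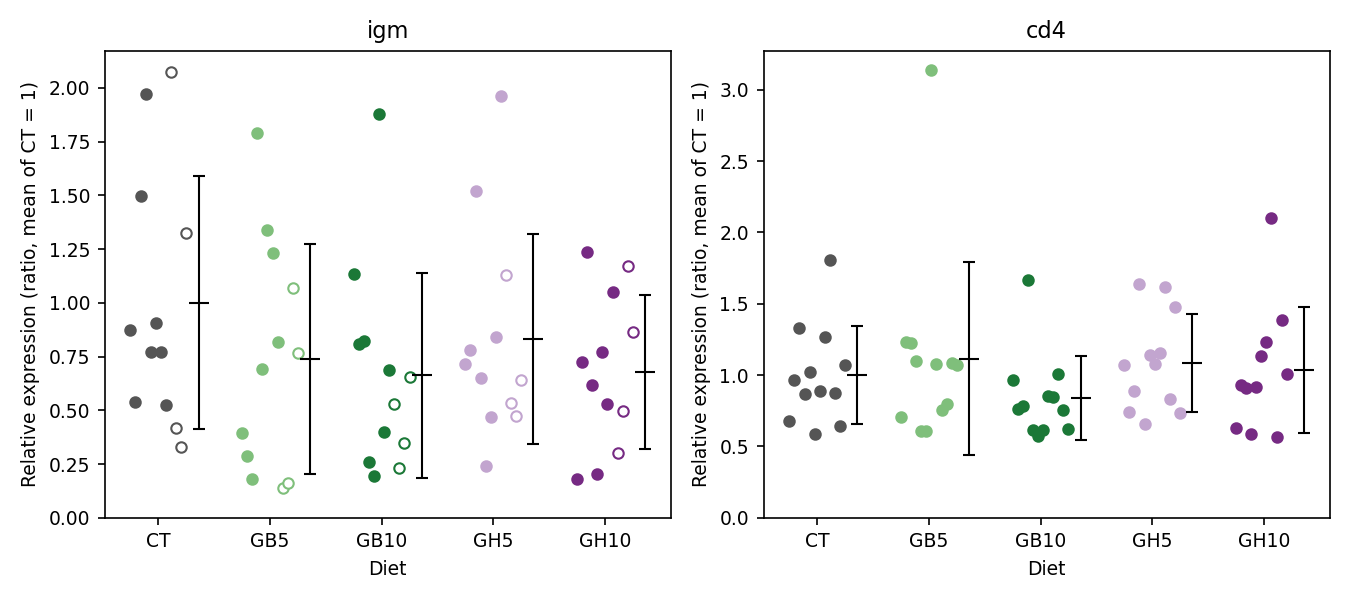
Relative expression of igm (left) and cd4 (right) in each fish by diet (scaled to eef1a and to a CT mean of 1), with the mean and SD as bars. Open circles are the igm values of the 20 fish whose listed igm cycle equals that of cldn15. The fish of all diets overlap, and the highest cd4 value, 3.14, belongs to a fish fed GB5.

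The 10 pairs of diets were compared for each gene, with the permutation p adjusted over the pairs. None of the pairs of igm or cd4 was under 0.05, with or without adjustment, where 5.71% of the 140 pairs over all 14 genes were under 0.05 before adjustment. The largest difference of igm was that of GB10 from CT, with a log2 difference of -0.67 (standard error 0.40, permutation p = 0.102, adjusted p = 0.464). As a ratio it was 0.627 (95% interval 0.358 to 1.10). In the fish with their own igm cycle, 8 in each diet, GH10 and not GB10 had the lowest mean log2 value. It was -0.86 in GH10, -0.71 in GB10 and -0.17 in CT, and pairs were not tested in these fish. For cd4 the largest difference was that of GH5 from GB10, by 0.37 (standard error 0.21, permutation p = 0.0839, adjusted p = 0.408). As a ratio it was 1.29 (95% interval 0.965 to 1.73).

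The spread between fish was compared too, because the SD of log2 igm ranged from 0.81 in GH5 to 1.29 in GB5. For the distance of each fish from the median of its diet, the permutation p over diets was 0.42 for igm and 0.888 for cd4. Of the 14 genes, 2 were under 0.05 in this permutation test (14.3%), and neither igm nor cd4 was among them. The log2 SD of cd4 ranged from 0.43 in GB10 to 0.64 in GB5.

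To compare supplementation as such, the 48 fish of the 4 supplemented diets were set against the 12 control fish. Mean log2 relative expression of igm was lower in supplemented fish, and the permutation p was above 0.05. The difference was -0.54 (standard error 0.31, permutation p = 0.0952, Benjamini-Hochberg value 0.367). The ratio of supplemented to control fish was 0.690 (95% interval 0.446 to 1.07). For cd4 the difference was -0.0084 (standard error 0.17, permutation p = 0.961), with a ratio of 0.994 (95% interval 0.788 to 1.25). Of the 14 genes, 1 was under 0.05 in this permutation test (7.14%), and it was neither of these. The difference of igm moved with single control fish, both of them among those without an igm cycle of their own. Without the lowest of them, at 0.328, it was -0.66 (permutation p = 0.0457), and without the highest, at 2.08, it was -0.42 (permutation p = 0.203). In the 40 fish with their own igm cycle it was -0.48 (permutation p = 0.22).

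Ingredient and dose were compared in the 4 supplemented diets. The ingredient difference, LB-GUThealth minus LB-GREENboost, in log2 units was 0.26 for igm (standard error 0.29, permutation p = 0.383) and 0.16 for cd4 (standard error 0.15, permutation p = 0.314). Each was close to its standard error. For igm the size depended on the fish and the reference, with 0.026 (standard error 0.37, permutation p = 0.944) in the 32 supplemented fish with their own igm cycle and -0.11 in their cycles alone. For cd4 it was 0.28 (n = 45, permutation p = 0.0363) without values beyond 1.5 interquartile ranges. The values this removed were the highest of GB5 (3.14) and of GB10 (1.67), both LB-GREENboost diets. No fish fed LB-GUThealth was removed, so the removal itself lowers the LB-GREENboost side. Of the 14 genes, 7.14% were under 0.05 for ingredient in the permutation tests. The dose difference, 1% minus 0.5%, was -0.17 for igm (standard error 0.29, permutation p = 0.567) and -0.21 for cd4 (standard error 0.15, permutation p = 0.175). No gene was under 0.05 for dose in the permutation tests before adjustment (0% of 14 genes), and 0 of 14 were with limma. The interaction was -0.30 for igm (standard error 0.59, permutation p = 0.606) and 0.21 for cd4 (standard error 0.31, permutation p = 0.497), with 7.14% of genes under 0.05 in that test. The interaction of cd4 turned to between -0.14 and -0.071 with the other references described next.

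The dose difference of cd4 depended on the reference gene. The cycle of eef1a itself was higher at 1% than at 0.5% by 0.18 cycles (standard error 0.10, permutation p = 0.0769). The cycle of cd4 alone, with no reference and its sign turned, differed by -0.39 between the doses (standard error 0.16, n = 48, permutation p = 0.0218, Benjamini-Hochberg value 0.305). A cycle alone is not corrected for the amount of template. The 48 fish include the GH10 fish without a deposited ratio. Relative to the mean cycle of the target genes without igm, which includes cd4 itself and the occludins, the difference was -0.41 (standard error 0.16, n = 47, permutation p = 0.0119, Benjamini-Hochberg value 0.166). The occludins have a second list of eef1a cycles, and whether their rows hold the same fish was not settled. With the occludins left out of that mean, the difference was -0.35 (standard error 0.17, n = 47, permutation p = 0.0453). This setting was fitted for igm and cd4 only, so it has no value adjusted over the 14 genes. Relative to the mean of the 7 claudins it was -0.35 (standard error 0.20, n = 48, permutation p = 0.0871). That mean gives equal weight to cldn3 and cldn4, whose cycles had an SD within diets of 1.74 and 1.52. For the other claudins this SD was between 0.322 and 0.991. With the cycle alone and with the target genes, cd4 was the only gene of 14 under 0.05 for dose (7.14% in each), and after adjustment it was not. The sign was the same with each of these references, and the part of eef1a in the result was not tested further. For igm, the dose difference in the 32 supplemented fish with their own igm cycle was -0.27 with eef1a (standard error 0.37, permutation p = 0.473) and ranged from -0.49 to -0.43 with these references, with permutation p from 0.186 to 0.262.

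**Figure D3:**
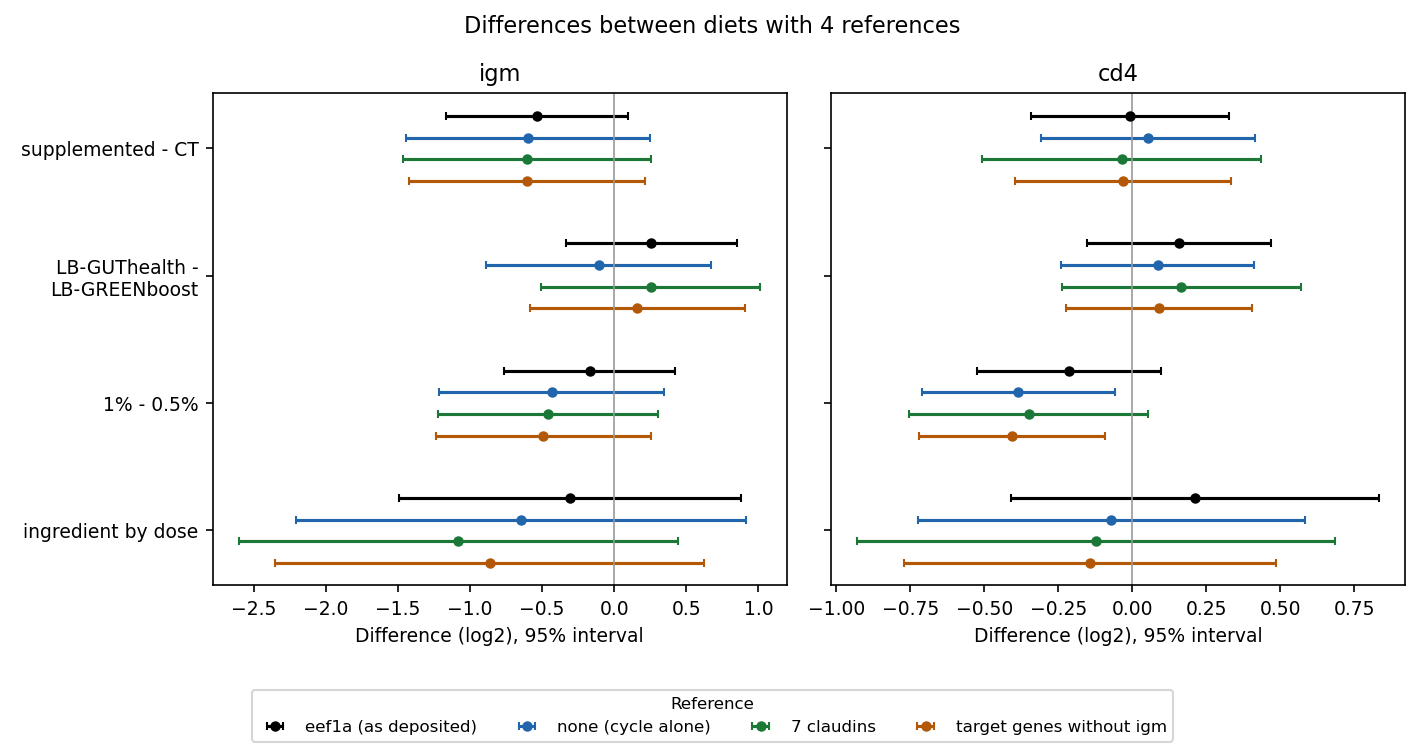
Differences between diets for igm (left) and cd4 (right) on the log2 scale, with 95% intervals, for eef1a, no reference, the 7 claudins or the target genes without igm as the reference. For igm, eef1a was used with all 60 fish (48 within the supplemented diets). The other references for igm were used with the 40 fish (32 supplemented) that have their own igm cycle. In that panel the fish differ as well as the reference. The interval of cd4 for 1% minus 0.5% excludes 0 with no reference and with the target genes, where the differences were -0.39 and -0.41, and it includes 0 with eef1a and with the claudins.

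The ratio of igm to cd4 in the same fish was used as a measure in which eef1a cancels. It was 1.02 ± 0.540 (SD, n = 12) in CT, from 0.412 over a median of 0.998 to 2.27. In GB5 it was 0.763 ± 0.638 (SD, n = 12), from 0.146 over a median of 0.640 to 2.19. In GB10 it was 0.904 ± 0.823 (SD, n = 12), from 0.155 over a median of 0.726 to 3.27. The lowest ratio of GB10 came from the fish with the highest cd4 of that diet, and the highest ratio from the fish that had both the highest igm and the lowest cd4.

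In GH5 the ratio of igm to cd4 was 0.803 ± 0.478 (SD, n = 12), from 0.320 over a median of 0.684 to 1.72. In GH10 it was 0.717 ± 0.340 (SD, n = 11), from 0.222 over a median of 0.781 to 1.36. The diets overlapped throughout. The one-way permutation p was 0.51 for log2 igm minus log2 cd4. Supplemented fish were lower than control fish by a difference of -0.51 (standard error 0.32, n = 59, permutation p = 0.115), a ratio of 0.704 (95% interval 0.453 to 1.09). For ingredient, dose and their interaction the permutation p was 0.643, 0.778 and 0.49, and the lowest Benjamini-Hochberg value over these 5 tests was 0.575. The SD within diets of the log2 difference was 1.00, close to that of igm alone.

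**Figure D4:**
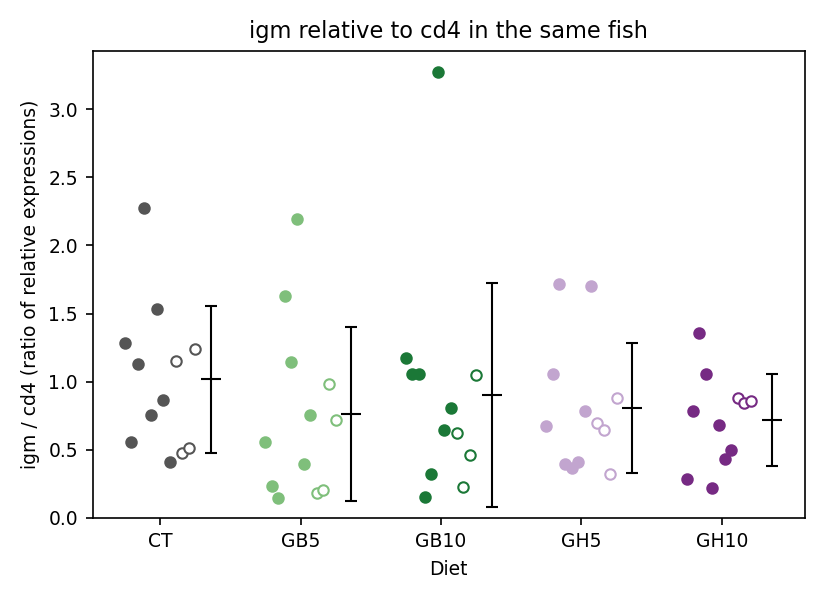
Ratio of the relative expression of igm to that of cd4 in the same fish, by diet, with the mean and SD as bars and open circles as for igm above. Medians ran from 0.640 in GB5 to 0.998 in CT, and the highest ratio, 3.27, was in a fish fed GB10.

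Across fish, the relation of igm with cd4 depended on the reference. For deviations of log2 relative expression from the diet means, Pearson's r was 0.24 (n = 59 fish, permutation p = 0.0962) and Spearman's rho was 0.22 (permutation p = 0.109). Over the 19 relations computed, which were igm with cd4 and each of them with the claudins, il10 and tlr9, the Benjamini-Hochberg values were 0.196 and 0.231. Without the 2 fish farthest from the median of igm, r was 0.20 (permutation p = 0.173). Of the 59 fish, 35 were on the same side of the median of their diet for both genes, with a fish on the median counted as below it. Where no relation exists, about as many fish lie on the same side as on opposite sides. The count was 6 of 12 in CT, GB10 and GH5, 8 of 12 in GB5 and 9 of 11 in GH10, and was not tested. In GH10 it includes fish A2, which was itself the median of the 11 fish for both genes and so lay on neither side.

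Within diets, r of igm with cd4 was 0.47 in CT (n = 12, permutation p = 0.126), 0.23 in GB5 (n = 12, permutation p = 0.508), 0.28 in GH5 (n = 12, permutation p = 0.383) and 0.52 in GH10 (n = 11, permutation p = 0.107). In GB10 it was -0.31 (n = 12, permutation p = 0.327). In the same order, rho was 0.34, 0.15, 0.28 and 0.52, and -0.15 in GB10, with permutation p from 0.107 to 0.635. The lowest Benjamini-Hochberg value over the 5 diets was 0.316 for r and 0.536 for rho, and the difference between diets was not tested. The genes share the eef1a cycle of each fish. With that cycle held constant r was 0.19 (permutation p = 0.199). In the 40 fish with their own igm cycle it was 0.11 (permutation p = 0.555). With the mean of the 7 claudins as the reference in place of eef1a, r in these 40 fish was 0.36 (permutation p = 0.0338). It was 0.41 (n = 59, permutation p = 0.00214) with the cycles calculated back included. Both genes then share the claudin mean, whose SD within diets was 0.584 cycles, against 0.386 for eef1a. A shared reference can raise r by itself, and the permutation does not account for that. In the cycles alone r was 0.25 (n = 40, permutation p = 0.185).

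Each gene was then set beside the genes whose pattern across fish was most like it. For igm these were cldn4l, a tight junction gene, with r = 0.30 (n = 60, permutation p = 0.0229, Benjamini-Hochberg value 0.0871), and il10 with r = 0.26 (n = 57, permutation p = 0.0681, Benjamini-Hochberg value 0.185). Their rho was 0.28 (permutation p = 0.0356, Benjamini-Hochberg value 0.113) and 0.25 (permutation p = 0.0711, Benjamini-Hochberg value 0.169). Neither was under 0.05 after adjustment. Without the 2 fish farthest from the median of igm, r was 0.28 with cldn4l and 0.27 with il10. In the cycles alone, with the igm cycles calculated back included, r was 0.25 with cldn4l (permutation p = 0.0683). With il10 it was 0.27 (permutation p = 0.0721).

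For cd4, the likest gene was il10, which encodes interleukin-10, a cytokine that restrains inflammation and that T cells and macrophages release in mammals. Fish with more cd4 had more il10, with r = 0.48 (n = 56, permutation p = 5.1e-04, Benjamini-Hochberg value 0.00969) and rho = 0.54 (permutation p = 1.3e-04, Benjamini-Hochberg value 0.00247). Without the 2 fish farthest from the median of cd4, r was 0.43 (permutation p = 0.00200). In the cycles alone, where eef1a has no part, r was 0.48 (permutation p = 8.5e-04). Cycles alone are not corrected for the amount of template, which the genes of a fish share. With the eef1a cycle held constant, r was 0.46 (permutation p = 0.00122). With the 7 claudins as the reference, which both genes then share, it was 0.29 (permutation p = 0.0387).

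The relation of cd4 with il10 was highest in the fish fed LB-GUThealth. Within GH5, r was 0.84 (n = 12, permutation p = 6.4e-04, Benjamini-Hochberg value over 5 diets 0.00320) and rho was 0.81 (permutation p = 0.00235). Within GH10, r was 0.66 (n = 11, permutation p = 0.0283, Benjamini-Hochberg value 0.0708) and rho was 0.86 (permutation p = 0.00118, Benjamini-Hochberg value 0.00587). It was lower in GB10 (r = 0.41, n = 12, permutation p = 0.18), GB5 (r = 0.41, n = 11, permutation p = 0.21) and CT (r = 0.25, n = 10, permutation p = 0.493). The rho in these was 0.29, 0.28 and 0.21, with permutation p of 0.358, 0.4 and 0.557. Every diet had a positive r, and whether diets differed in it was not tested. In CT, fish A6 went against the relation, with deviations from the diet mean of -0.69 for cd4 and 2.25 for il10. Leaving it out raised r over the fish of all diets to 0.58, more than leaving out any other fish. The r within CT without this fish was not computed. The gene il10 was taken for its high r with cd4 in these same fish. The p-values within diets do not account for that choice, so they are no separate test of the relation.

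The gene second in likeness to cd4 was cldn5, another claudin of tight junctions, with r = 0.40 (n = 59, permutation p = 0.00285, Benjamini-Hochberg value 0.0180) and rho = 0.46 (permutation p = 4.7e-04, Benjamini-Hochberg value 0.00446). Without the 2 fish farthest from the median of cd4, r was 0.43. In the cycles alone it was 0.23 (permutation p = 0.102). Of the 19 relations, 5 had a permutation p of r under 0.05 (26.3%), 1 of igm and 4 of cd4, and 3 had a Benjamini-Hochberg value of r under 0.05 (15.8%), all of them of cd4. The third was cldn7b, named after its value was seen, with r = 0.40 (permutation p = 0.00235, Benjamini-Hochberg value 0.0180) and a rho of 0.34 (Benjamini-Hochberg value 0.0702), and with r = 0.31 in the cycles alone (permutation p = 0.0354). In all 19 relations the genes share the eef1a cycle of each fish. That can raise r by itself, and neither the permutation nor the adjustment accounts for it. For cldn5 and cldn7b, r with the eef1a cycle held constant was not computed. The cycle of cd4 followed that of eef1a across fish, with r = 0.43 and rho = 0.38 (n = 60, permutation p = 4.8e-04 and 0.00296). That of igm did so in the 40 fish with their own igm cycle, with r = 0.37 and rho = 0.36 (permutation p = 0.0311 and 0.0357). Once the igm cycles calculated back were included, r was 0.18 (n = 60, permutation p = 0.170).

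**Figure D5:**
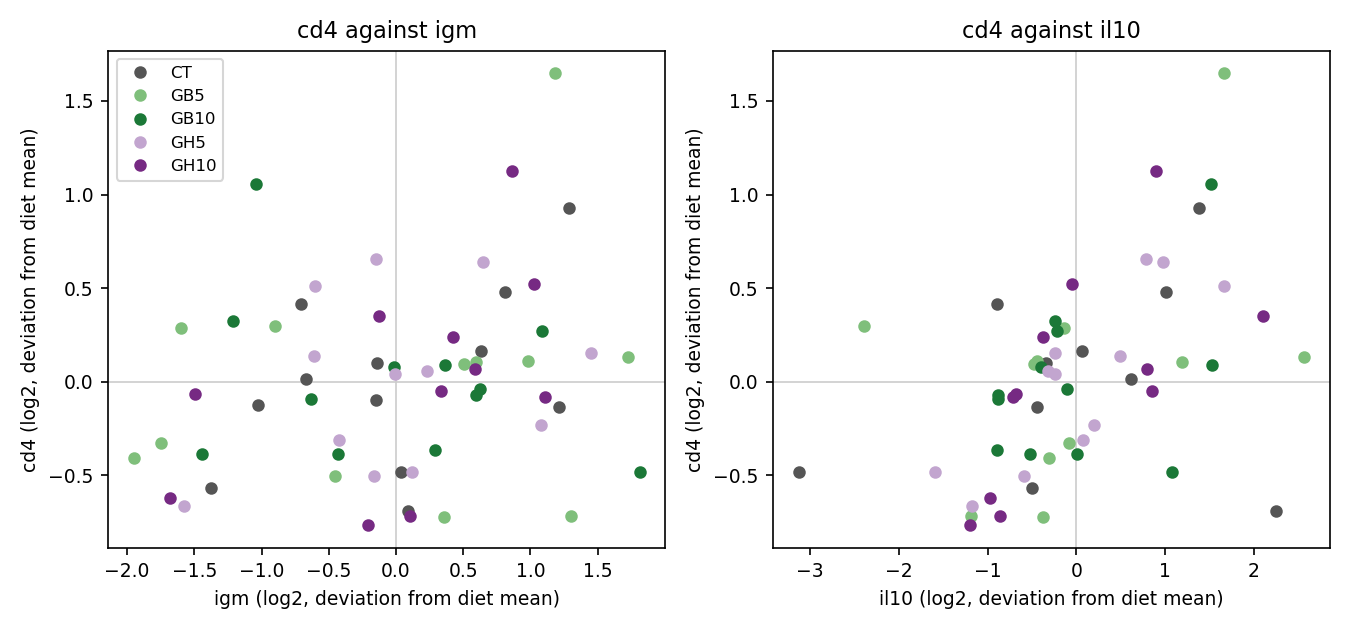
Log2 relative expression of cd4 in each fish against that of igm (left) and il10 (right), as deviations from the diet mean, coloured by diet. Pearson's r was 0.24 for cd4 with igm and 0.48 for cd4 with il10.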

How the data were processed

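RNA of each anterior intestine was reverse-transcribed and amplified in duplicate by the authors, with 1 value deposited per fish and gene. The deposited cycles are on a log2 scale and not normalized. Relative expression was deposited as a ratio by the ΔΔCT method, with eef1a as the reference. The authors took out outliers by the ROUT method. Whether a missing ratio, such as that of cd4 in a fish of GH10, is such an outlier was not settled. How well duplicate wells matched is unknown, and the software behind the cycles is not given in the sources used here. A further table, holding the authors' own fold changes between diets, was not used.

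The members and lists were chosen with earlier results of these data known. Log2 ratios were tested by permutation (100000 resamples, two-sided, threshold 0.05), with Benjamini-Hochberg values over 14 genes. In relations, fish were permuted within diets. The 95% intervals come from the pooled SD. Occludins were left out of relations because their ratios rest on a second list of eef1a cycles, and whether its rows hold the same fish was not settled. The genes named beside igm and cd4 were the 2 with the highest r for each. The tests were tested on simulated independent fish, with no effect or with an effect larger than any difference between diets of igm or cd4. Smaller effects and fish sharing a tank were not simulated. Alternatives were other scales, references and sets of fish, and limma. The igm cycles calculated back, the target genes without occludins as a reference, the fish without a ratio and the alternatives for cd4 with il10 were added after seeing the data. Python 3.11.15, numpy 2.4.6, scipy 1.17.1, pandas 2.3.3, matplotlib 3.10.9, R 4.3.3 and limma 3.58.1 were used.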

Additional observations from a re-analysis of the deposited data

Results flagged for a closer look

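The lowest and highest fish were compared with their nearest neighbour in 15 sets of 4 or 8 igm values, since diets of 11 or 12 fish were too large for this comparison. In 1 set, the 4 igm cycles of GH5 calculated back from the ratio, a fish stood apart, with a gap of 0.935 of the whole range. Its cycle was 24.4, against 25.6 and 25.7 in the others, and it lay within the range of all 12 fish of GH5, from 24.0 to 27.0. Chance flags about 1 in 20 such sets.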

How the results depend on the processing

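Of 145 alternative fits of 15 results, 127 kept the side of the threshold of 0.05 and, where a result has one, the direction. Not all of these fits are separate. No igm value lay beyond 1.5 interquartile ranges, so that fit repeats the main one. Recomputing igm from the cycles repeats the fit of the 40 fish with their own igm cycle. For cd4, recomputing from the cycles repeats the fit with the GH10 fish without a ratio. Of the fits outside the 127, 9 changed sign, all in results whose permutation p was above 0.05. The cycle alone gave -0.11 for ingredient on igm, 0.053 for supplemented fish against CT on cd4 and -0.071 for the interaction on cd4. The interaction on cd4 was -0.12 with the claudin mean and, with the mean of the target genes, -0.14 with and -0.11 without the occludins. For supplemented fish against CT, cd4 gave 0.019 both on the linear scale and without values beyond 1.5 interquartile ranges. These values were of 3 fish, 1 each of CT, GB5 and GB10. The ingredient comparison, which has no CT fish, lost only the highest fish of GB5 and of GB10, both LB-GREENboost diets. Without them the ingredient difference of cd4 was 0.28 (permutation p = 0.0363). The dose difference of cd4 passed the threshold with the cycle alone (-0.39) and the target genes with (-0.41) and without the occludins (-0.35). The relation of igm with cd4 was 0.36 with the claudin mean and 0.41 (permutation p = 0.00214) with the cycles calculated back included. Both genes then share that mean, whose SD within diets was 0.584 cycles, against 0.386 for eef1a. Within GB10 it was -0.31. The relation of cd4 with il10 had a permutation p above 0.05 within CT (0.25), GB5 (0.41) and GB10 (0.41). With each fish left out in turn, r of igm with cd4 ranged from 0.18 to 0.30, and was under 0.05 in permutation p without 1 of 3 fish (GB5 A6, GB10 A4 or GB10 A6). That of cd4 with il10 ranged from 0.44 to 0.58 and stayed under 0.05, and the igm difference from CT ranged from -0.66 to -0.42. The cause of these changes was not tested. Each value is 1 cycle per fish, and the spread between fish sets the precision. No paired analysis was possible because the fish numbers are row labels within a diet and do not pair fish across diets.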
